A study of Mus musculus with 6 samples.

Results

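The genes described here encode the proteins of the cytosolic ribosome. They were taken from the array's gene names: every non-control probe named Rpl, Rps or Rplp followed by a number was a member, except the S6 kinases (names beginning Rps6k) and names marked as pseudogenes. The rule used no measured value. It found 85 of the array's 32053 gene names, with 187 of its 55681 probes, of which 119 belonged to the large and 68 to the small ribosomal subunit. The accessions of 172 member probes were in RefSeq's gene table, where 3 carried another symbol today (Rps3a is now Rps3a1, and Rps4y2 is now Rps4l).

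RNA came from 6 cultures of the mouse pre-B cell line 1676, which carries the genotype SLP-65-/- LAT-/- in every group, and each culture was hybridized to 1 single-colour array of 60-base probes. All cells had been infected with a retroviral vector, selected with puromycin and kept in an excess of the cytokine IL-7. The 2 control cultures carried the empty vector, 2 carried a vector expressing human hsa-miR-26a-2 (called miR-26a below), and 2 carried a sponge construct that sequesters the microRNAs of the miR-26 family. The study asked what more and what less miR-26 do to the transcriptome of B cell precursors, and each group was made in 2 experiments with clones generated separately. All 3 groups therefore describe a single cell line, and nothing here speaks for primary pre-B cells.

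A ribosome is built from ribosomal RNA and about as many different proteins as there are genes in this set, most of them present once and the stalk proteins Rplp1 and Rplp2 more often, and these proteins are divided between a large (60S) subunit that forms peptide bonds and a small (40S) subunit that decodes the messenger RNA. Ribosomal protein mRNAs are among the most abundant in dividing cells. Most begin at a cytosine followed by a run of pyrimidines, the terminal oligopyrimidine (TOP) motif, through which the mTORC1 pathway controls their translation. The miR-26 family recognises its targets mainly through bases 2 to 8 of the mature microRNA, the seed. The RefSeq sequences of the mouse family members are shown because the sponge was directed against this family, with the seed in capitals; miR-26a is encoded on chromosomes 9 and 10 and miR-26b on chromosome 1, and the seed of both is the same.
mmu-miR-26a-5p: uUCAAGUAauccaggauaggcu
mmu-miR-26b-5p: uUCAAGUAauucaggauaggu

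The start regions of the members were searched for the pyrimidine start, a sequence feature that the selection did not use. RefSeq's promoter table (GRCm38.p6) held 75 promoters of 63 member genes. A start at C followed by at least 4 pyrimidines (C or T) was found, on the transcribed strand, in 13 of the 75 (17.3%), 7 of 47 of the large and 6 of 28 of the small subunit, against 823 of all 32851 promoters (2.51%). The match depends on the annotated start being right to the base, so a promoter without it may still carry the motif next to that position. In the lines that follow, 20 bases before and 20 bases from the start are given 5′ to 3′ on the transcribed strand with the pyrimidine run in capitals. Rps6 (the main substrate of S6 kinases), the stalk protein gene Rplp2, Rpl14 and Rps21 carry the run. The start of Rpl22l1, where the base is G, is shown for contrast.
Rps6, chr4:86857348-86857387, minus strand: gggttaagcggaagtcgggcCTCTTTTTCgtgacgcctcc
Rplp2, chr7:141447631-141447670, plus strand: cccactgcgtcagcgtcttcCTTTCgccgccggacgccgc
Rpl14, chr9:120571497-120571536, plus strand: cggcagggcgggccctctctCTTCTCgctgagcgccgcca
Rps21, chr2:180257359-180257398, plus strand: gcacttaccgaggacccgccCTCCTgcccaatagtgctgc
Rpl22l1, chr3:28805488-28805527, plus strand: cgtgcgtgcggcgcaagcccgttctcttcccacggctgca

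All 6 arrays lay on 1 slide and were similar in brightness, with 48.6% to 50.2% of the 59305 non-control spots well above background and no saturated spot. Experiment 1 and experiment 2 occupied different positions on the slide, so experiment and position cannot be told apart. Each group also had its own second position index, the same in both experiments. Group and slide position therefore cannot be told apart in any comparison. Each of 11 pre-B cell markers (Cd79a, Vpreb1, Pax5 and others) cleared the scanner's background limit on every array. The log2 of their summed signal was 19.47 and 19.57 in the control, 19.40 and 19.51 with miR-26a and 19.47 and 19.57 with the sponge. Of the myeloid, T cell, erythroid and stromal markers, 4 of 9, 3 of 6, 0 of 4 and 1 of 4 cleared it on every array, and 3 of the 4 erythroid and 3 of the 4 stromal markers did so on none. Of the 4 plasma cell markers (Irf4 and others), all cleared it. Single markers moved with miR-26a. Of 13 pre-B probes 11 had a change below 0 (median -0.07), where 10622 of all 20168 tested probes were above 0. Blnk fell (-0.49, limma adjusted p = 0.0275). The transcription factor Irf4 fell (-1.19, adjusted p = 0.0048). Of the myeloid markers Cd68 rose (0.33) and Itgam probe A_55_P1977929 fell (-0.82). Another Itgam probe overlapped between the groups, with log2 signals of 11.513 and 11.996 in the control and 11.663 and 11.971 with miR-26a. The part of the marker shifts in the members' values was not tested. Blnk, which encodes SLP-65, gave log2 signals of 14.90 to 15.61 and Lat 10.10 to 10.30, and since the deleted exons are not given in the sources used here, these probes check nothing about the deletions.

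Signals are given as log2 of the quantile-normalized intensity, and a change is a difference of 2 group means on that scale. A probe was tested when at least 1 array had it clearly over background and its processed signal exceeded 50 on at least 4 arrays, and 180 member probes of 82 gene names passed (115 of the large and 65 of the small subunit). Each of the 180 was clearly over background on every one of the 6 arrays, so no member entered through 1 group alone. The 7 probes left out included those of Rpl10l (2 probes), Rpl39l and Rps4y2, which were above background on no array, and a dim probe each of Rps15a and Rps27a. Rpl10l and Rpl39l are retrogene copies known from testis, and their log2 signals were 1.25 to 2.90 and 1.49 to 1.81.

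The ribosomal protein transcripts were among the brightest on the array: 148 of the 180 probes lay above the 95th percentile of mean signal, with a median log2 signal of 16.77 against 9.79 over all 20168 probes tested. Signal also depends on the probe, so this is no ranking of transcripts. The members varied little between the 2 arrays of a group, with a median absolute difference of 0.0449 in the control against 0.104 over all tested probes. An array measures the RNA of a fixed input, so fewer cells and less RNA per cell cannot be told apart.

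With miR-26a, ribosomal protein transcripts kept nearly the level of the control after quantile normalization. That step gives every array the same distribution of signals, so it may reduce a shift shared by the brightest probes. How much it took out was not tested. Of the 180 probes, 1 passed the test at an adjusted p under 0.05 (limma, Benjamini-Hochberg adjustment over all tested probes). That is 0.556%, while 9.64% of all tested probes passed. The probe was that of Rpl3l, which fell. Bright probes passed rarely in either set: above the 95th percentile of signal 0 of 148 members and 9 of 861 other probes (1.05%) did. The median change was -0.00087 over the large subunit and 0.00763 over the small subunit, against 0.0102 over all tested probes. The median absolute change was 0.0334 over the members and 0.119 over all probes.

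A missed threshold does not show that a transcript stayed the same, so the 95% intervals were read as well. With miR-26a the whole interval lay between 20% lower and 20% higher in 154 of the 180 member probes (85.6%) against 35.9% of all tested probes. The shares were 84.3% for the large and 87.7% for the small subunit. Brightness moved with this result: among the tested probes above the 95th percentile of signal the share was 91.2% of the 148 members and 83.4% of the 861 other probes, and among the dimmer probes it was 59.4% of 32 members and 33.3% of the others. The part of brightness in the members' share was not tested further.

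**Figure D1:**
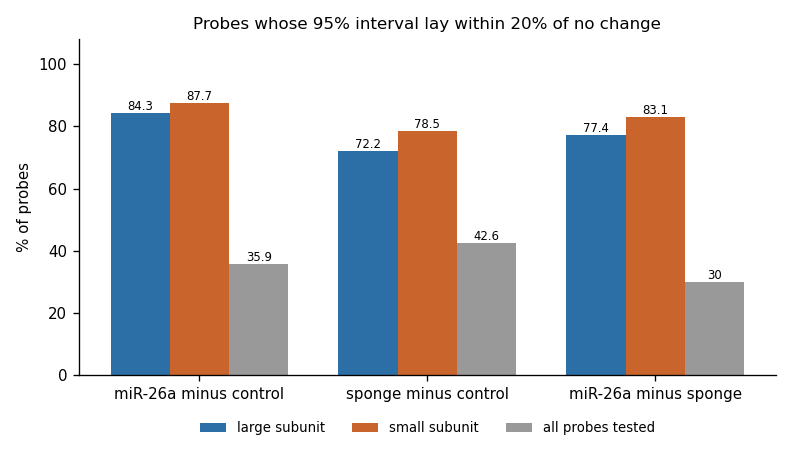
Share of probes (%) whose 95% interval of the change lay wholly between 20% lower and 20% higher, for the large subunit (115 probes), the small subunit (65 probes) and all 20168 probes tested, in the 3 comparisons. Both subunits stood between 72.2% and 87.7%, all probes between 30.0% and 42.6%.

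The sponge gave a like picture. None of the 180 member probes passed (limma, adjusted p under 0.05), where 2 of all probes, or 0.00992%, did. At an unadjusted p under 0.05 there were 6 member probes (3.33%) against 16.1% of all probes, and the methods' t-test gave 13 before adjustment (7.22%, against 6.41% of all probes) and 0 after it. The median change was 0.0279 over the large and -0.0011 over the small subunit. The interval lay within 20% on either side in 134 members (74.4%) and in 42.6% of all probes, and above the 95th percentile of signal in 78.4% of the members and 74.4% of the others.

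The 2 manipulated groups set against each other gave the widest contrast over the whole array, with 16.8% of all probes passing. Of the members 2 passed (1.11%), Rpl3l lower and a probe named Rpl13 higher with miR-26a than with the sponge. At an unadjusted p under 0.05 there were 16 (8.89%) against 34.6% of all probes. The median change was -0.0220 over the large and 0.0195 over the small subunit. The interval lay within 20% in 143 members (79.4%) and in 30.0% of all probes. Above the 95th percentile of signal, 1 of 148 members (0.676%) and 21 of 861 other probes (2.44%) passed. The interval share there was 83.8% of the members and 67.1% of the others.

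**Figure D2:**
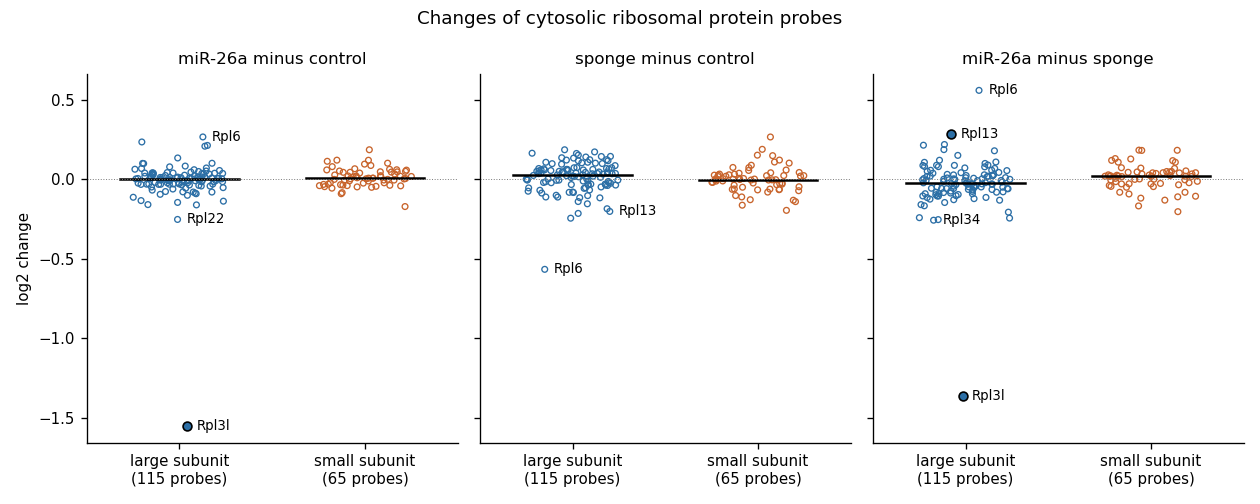
Log2 change of each tested member probe (open circles, not passing; filled circles, adjusted p under 0.05) in the 3 comparisons, by subunit, with the median as a black bar. All but a few probes lay close to 0; Rpl3l was lowest with miR-26a (-1.55 against the control), and a Rpl6 probe was lowest with the sponge (-0.57).

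The 2 subunits are needed in equal numbers, and their transcripts were compared array by array. The deviation of a probe from its own mean over the 6 arrays was taken, and the median over the small subunit was subtracted from that over the large subunit. The value was 0.0150 and -0.0136 in the 2 control cultures, -0.0157 and -0.0193 with miR-26a and 0.0463 and 0.00086 with the sponge. The miR-26a cultures were the lowest, while the control and sponge cultures overlapped. Within experiments 1 and 2, miR-26a minus control was -0.0307 and -0.0057, and sponge minus control was 0.0313 and 0.0144, so by this measure each had 1 sign in both. The medians of the probe changes gave another order for miR-26a against the control. The large subunit had -0.0091 and the small 0.0250 in experiment 1, but 0.0241 and 0.0081 in experiment 2. With the sponge the large subunit was the higher in both (0.0357 against 0.0031, and 0.0126 against -0.00825). The gap between the 2 sponge cultures alone was as wide as the difference between the groups, and with 2 cultures a group a two-sided exact permutation test over the arrays, without the pairing, cannot go below 0.333, and 2 pairs allow no smaller p. The difference of the subunit medians was -0.0085 for miR-26a against the control, 0.0289 for the sponge against the control and -0.0416 for miR-26a against the sponge, and the first turned to 0.00683 without miR-26a replicate 1. Without sponge replicate 1 the last was -0.0252 and the sponge difference 0.0129.

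**Figure D3:**
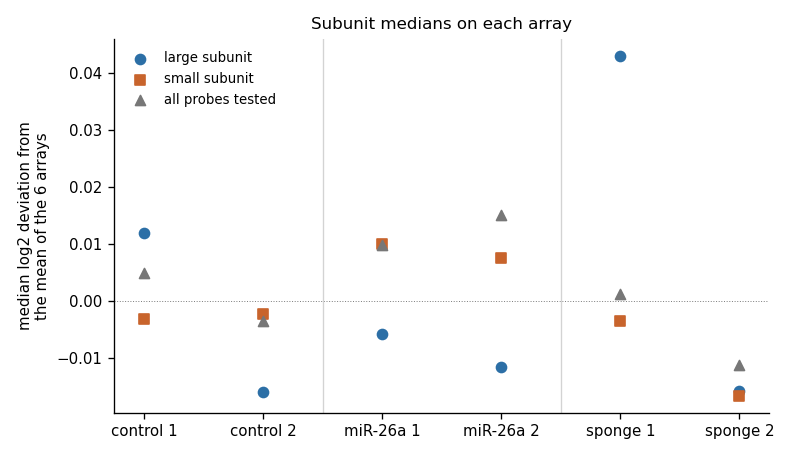
Median log2 deviation from the mean of the 6 arrays, for the large subunit (115 probes), the small subunit (65 probes) and all tested probes, on each array. The points of all 3 sets lay between -0.017 and 0.043, and the large subunit of sponge culture 1 stood highest.

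Rpl3l was the member that fell with miR-26a. It encodes a paralog of the large subunit protein Rpl3, known from heart and skeletal muscle. Its only probe (A_51_P243123) lies on mouse build mm9 at chr17:24872413-24872681, on the plus strand, and spans more of the genome than its own length. The probe is shown because the only call among the members against the control rests on it.
Rpl3l probe: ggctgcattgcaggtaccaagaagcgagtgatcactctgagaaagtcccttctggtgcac

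The log2 signal of Rpl3l was 7.25 and 7.24 in the control, 5.30 and 6.08 with miR-26a and 6.79 and 7.33 with the sponge. Both miR-26a cultures lay below all 4 others, and they differed from each other by more than the cultures of any other group. Rpl3l fell by 1.55 on the log2 scale, a 2.93-fold difference, from control to miR-26a (SE 0.184, n = 2 in each group, limma adjusted p = 0.0108). It was also lower with miR-26a than with the sponge, by a log2 change of -1.37 (adjusted p = 0.0110), and its change with the sponge against the control was -0.19 (adjusted p = 0.643). The fall was -1.95 in experiment 1 and -1.16 in experiment 2. The probe was dim, at the 13.7th percentile of tested signal, though above background on all arrays. The call against the control was lost without the experiment as a block (adjusted p = 0.0684), when no dim probes were removed (adjusted p = 0.262) and with the methods' t-test (adjusted p = 0.388). The call against the sponge was lost under the same 3 settings (adjusted p = 0.0568, 0.222 and 0.438), without sponge replicate 1 (adjusted p = 0.0863) and without sponge replicate 2 (adjusted p = 0.0885). With another background correction (normexp) the change was -0.89 and still passed.

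Rpl3 itself was named here after its values were seen. Its 2 probes had a change of -0.03 each with miR-26a (adjusted p = 0.811 and 0.864) at log2 signals of 17.11 to 17.27 over the 6 arrays. Whether RNA of one paralog reaches the probe of the other was not tested.

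**Figure D4:**
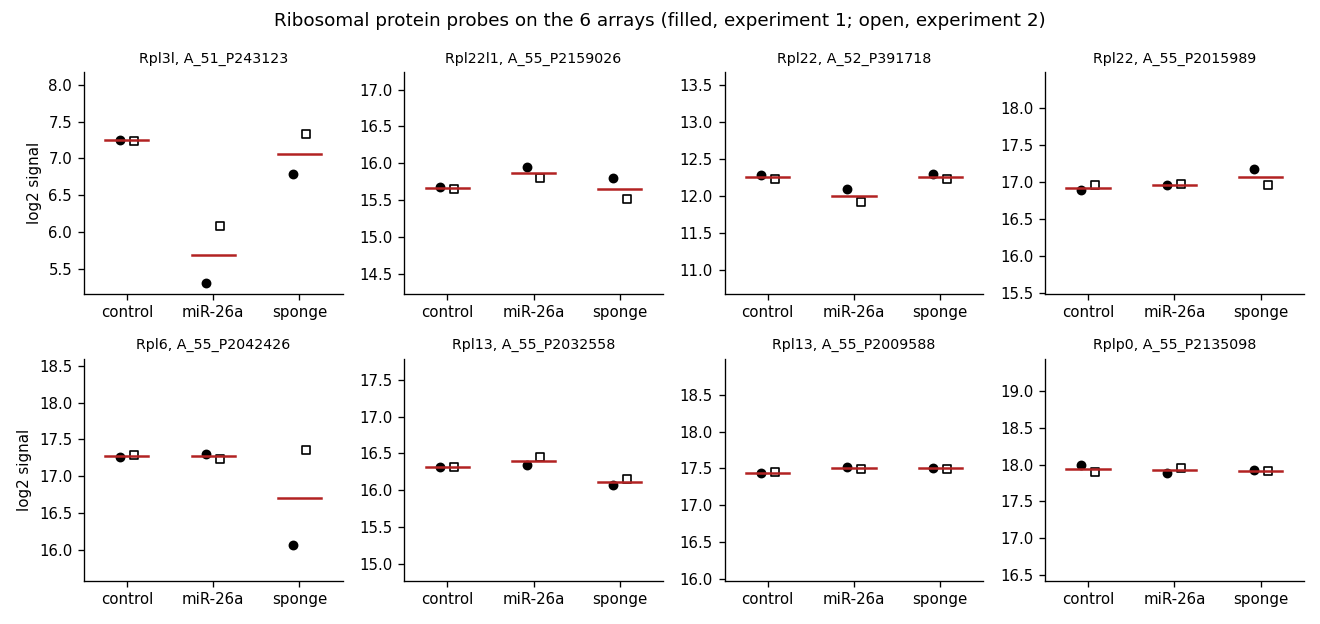
Log2 signal of 8 member probes in the 2 control, 2 miR-26a and 2 sponge cultures (filled circles, experiment 1; open squares, experiment 2; red bars, group means); each panel spans 3 log2 units. Rpl3l was low in both miR-26a cultures, the Rpl6 probe was low in sponge culture 1 alone, and the Rpl13 probe A_55_P2032558 was lowest in the sponge cultures.

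Rpl13, a large subunit protein, passed the test through 1 of its 4 probes only. Probe A_55_P2032558 had log2 signals of 16.32 and 16.32 in the control, 16.35 and 16.45 with miR-26a and 16.07 and 16.16 with the sponge. Both sponge cultures lay below the other 4. It was higher with miR-26a than with the sponge by 0.29 (SE 0.069, limma adjusted p = 0.0460), and its change with the sponge against the control was -0.20 (adjusted p = 0.273). The call was lost without the experiment as a block (adjusted p = 0.116), and without any 1 of the 6 arrays (adjusted p = 0.0998 to 0.174).

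The array design places that probe on chromosome 4 (chr4:10775828-10775887, mm9, plus strand), whereas RefSeq has the Rpl13 gene on chromosome 8. Probe A_55_P2011235, also on chromosome 4 (chr4:52254267-52254326), gave 0.19 for miR-26a against the sponge (adjusted p = 0.129). The 2 probes on chromosome 8 gave 0.0010 and 8.3e-05 (adjusted p = 0.994 and 1.00). The values of 2 placements thus differed under 1 gene name, and which transcripts the chromosome 4 probes bind was not tested. Both chromosome 4 probes and 1 of the chromosome 8 probes are printed so that their sequences can be compared.
Rpl13 A_55_P2032558, chromosome 4: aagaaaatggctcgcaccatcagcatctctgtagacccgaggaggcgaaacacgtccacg
Rpl13 A_55_P2011235, chromosome 4: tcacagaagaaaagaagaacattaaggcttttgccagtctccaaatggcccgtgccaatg
Rpl13 A_55_P2009588, chromosome 8: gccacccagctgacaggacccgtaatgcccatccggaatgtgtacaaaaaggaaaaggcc

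Such placements were not limited to Rpl13. Of 182 member probes with both positions known, 11 probes of 5 gene names (Rpl13, Rpl36, Rps27, Rps29 and Rps4x) lay on another chromosome than the RefSeq gene. Ribosomal protein genes have many processed copies in the genome, and the signal of such a probe may come from a copy. Outside Rpl13 these probes changed by -0.03 to 0.03 with miR-26a.

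Rpl6 gave the lowest value with the sponge and the highest for miR-26a against the sponge, both through 1 array. Its probe A_55_P2042426 had log2 signals of 17.26 and 17.30 in the control, 17.31 and 17.24 with miR-26a and 16.07 and 17.36 with the sponge. Sponge culture 1 stood apart and culture 2 was the highest of the 6. The change with the sponge was -0.57 (SE 0.327, adjusted p = 0.438), and without sponge replicate 1 it was 0.09. On 2 other Rpl6 probes, A_55_P1990859 and A_55_P2052634, sponge culture 1 had 17.18 and 17.14, where the other arrays had 17.07 to 17.14 and 17.11 to 17.15.

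Among the other large subunit members none passed. Rpl22 and Rpl22l1 are a pair of interest in lymphocytes, since Rpl22 is required in the development of T and B cells and is known to repress its paralog Rpl22l1. The Rpl22 probe A_52_P391718 had log2 signals of 12.28 and 12.23 in the control, 12.09 and 11.92 with miR-26a and 12.30 and 12.22 with the sponge. The miR-26a cultures were the lowest, by -0.25 against the control (SE 0.071, adjusted p = 0.0872). The second Rpl22 probe, A_55_P2015989, had a change of 0.04 (adjusted p = 0.842), so the 2 probes of this gene differed. Rpl22l1 had log2 signals of 15.68 and 15.65 in the control, 15.94 and 15.80 with miR-26a and 15.80 and 15.51 with the sponge, where the groups overlapped between miR-26a and sponge. Its change with miR-26a was 0.21 (SE 0.085, adjusted p = 0.190).

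The other members with the largest changes against the control in the miR-26a cultures were Rpl6 (probe A_55_P2043639, 0.27, adjusted p = 0.143), Rpl31 (A_51_P452820, 0.24, adjusted p = 0.0885), Rpl14 (0.21, adjusted p = 0.123), Rps3 (A_55_P2038237, -0.17, adjusted p = 0.209) and Rpl11 (A_55_P2010341, -0.16, adjusted p = 0.199). These were proteins of both subunits, and whether they share a role was not tested. The 4 other Rpl31 probes lay between -0.02 and 0.01, and the 2 other Rps3 probes had 0.09 and 0.12. The 3 Rpl14 probes ranged from -0.03 to 0.21 and the 4 Rpl6 probes from -0.01 to 0.27. The Rpl6 probe named was dim, at the 11.8th percentile of tested signal. With the sponge the largest included 2 of the 3 Rpl10 probes (-0.24 and -0.21, adjusted p = 0.264 and 0.268), where the other had 0.02. Rps21 (0.19, adjusted p = 0.288) and Rpl27a (A_55_P2048671, 0.17, adjusted p = 0.349) were also among them. For miR-26a against the sponge the largest included 2 Rpl34 probes (-0.26 and -0.24, limma adjusted p = 0.0761 and 0.0952). Single probes of Rpl22 (A_52_P391718, -0.25, adjusted p = 0.0655) and Rpl31 (A_51_P452820, 0.22, adjusted p = 0.0793) were also among them. The brighter Rpl22 probe had -0.11 there, and the 5 Rpl31 probes ranged from -0.03 to 0.22.

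Rplp0, Rplp1 and Rplp2 form the stalk that recruits the elongation factors, and Rplp0 is widely used as a reference transcript. Its brightest probe had log2 signals of 17.99 and 17.90 in the control, 17.89 and 17.95 with miR-26a and 17.93 and 17.91 with the sponge, and all groups overlapped. The changes with miR-26a were -0.02 for that Rplp0 probe, 0.04 for Rplp1 and 0.003 for Rplp2. With the sponge they were -0.02, 0.14 and 0.05, and none passed (lowest adjusted p 0.363). The other 2 Rplp0 probes had 0.01 and 0.006 with miR-26a and 0.04 and 0.03 with the sponge.

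Rpl5 and Rpl11, which bind Mdm2 together with 5S ribosomal RNA when ribosome assembly is disturbed, had changes of -0.08 (Rpl5) and -0.09 to -0.16 (3 Rpl11 probes) with miR-26a. In the small subunit Rps19, whose loss of 1 copy causes Diamond-Blackfan anaemia in humans, had -0.06 with miR-26a and -0.10 with the sponge. The 3 Rps6 probes had 0.02 to 0.06 with miR-26a and -0.16 to 0.07 with the sponge. None of these passed (lowest adjusted p 0.199 with miR-26a and 0.314 with the sponge).

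The paralogs and relatives that the name rule brought in were few. Rpl36al had a change of 0.10, Rps27l (a p53-induced paralog of Rps27) 0.19, Rpl7l1 -0.03 and Rps19bp1, a nucleolar binding partner of Rps19 that is no ribosomal protein, 0.11 with miR-26a. Of these none passed (adjusted p = 0.194 to 0.845). Without all such names, which also leaves out the called Rpl3l, the members called were 0 against the control and 1 against the sponge.

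Where a gene had several probes, these did not always give the same value. Of the 82 gene names tested, 56 had more than 1 tested probe, and for miR-26a against the control the range between the probes of a gene was widest for Rps3 (0.29), Rpl22 (0.29) and Rpl6 (0.28). These ranges were wider than the change of any tested member other than Rpl3l.

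The 27 probes of genes with a pyrimidine start had a median change of 0.0164 with miR-26a (-0.08 to 0.21) and 0.0332 with the sponge (-0.16 to 0.19). The words TACTTGA and ACTTGAA, which pair with bases 2 to 8 and 1 to 7 of miR-26a, were looked for in the probe sequences in the sense direction. Of 187 member probes 1 held one (0.535%), a probe of Rpl27a, against 0.955% of all probes. Its change was -0.02 with miR-26a and 0.07 with the sponge. A probe covers a small piece of a transcript, so nothing follows for the rest of it.

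Genes that work beside the ribosomal proteins were listed as well. The ribosome assembly list (nucleolar factors and RNA polymerase I subunits, 64 tested probes of 42 names) had a median change of 0.191 with miR-26a, against 0.0102 over all tested probes. Above 0 were 54 of the 64, where 10622 of all 20168 were. Of the list 7 probes passed as higher and 0 as lower (10.9%, against 9.64% of all probes). They were Polr1b, a subunit of RNA polymerase I (0.66, adjusted p = 0.0086), Rrp1b (0.54), Tsr1 (2 probes, 0.41 and 0.42), Pes1 (0.41), Dkc1 (0.37) and Utp20 (0.32). Without the block none of the list passed, and the calls over all probes went from 1944 to 311. The median of the list was 0.137 to 0.227 when 1 array was left out. With the sponge 0 passed in limma (6 at an unadjusted p under 0.05, or 9.38%, against 16.1% of all probes). The median was 0.112, with 0.178 in experiment 1 and 0.0237 in experiment 2, and it was 0.0320 without sponge replicate 1, 0.0480 without control replicate 1 and 0.174 without sponge replicate 2. Against the sponge 7 probes were higher with miR-26a and 0 lower (10.9%, where 16.8% of all probes passed). The median there was 0.0709, and 0.0508 to 0.158 when 1 array was left out.

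Mitochondrial ribosomal proteins, which translate the mitochondrial genome, had a median of 0.114 over 103 probes of 76 names with miR-26a. Of these probes 2 rose, Mrpl50 (0.38) and Mrpl36 (0.31), which is 1.94% against 9.64% of all probes. Against the sponge 3 were higher, Mrpl4, Mrpl28 and Mrpl44 (2.91%, against 16.8% of all probes). With the sponge against the control 0 passed in limma (10 at an unadjusted p under 0.05, or 9.71%, against 16.1% of all probes).

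Translation initiation and elongation factors had a median of 0.0141 over 58 probes of 36 names with miR-26a, and 2 fell (3.45%, against 9.64% of all probes). These were Eif2s1, the alpha subunit of the factor that brings the initiator tRNA (-0.84, adjusted p = 0.0066), and Eif4g2 (-0.69, adjusted p = 0.0075). Both were also lower with miR-26a than with the sponge (-0.98 and -0.86), where 7 probes of the list were lower and 2 higher (15.5%, against 16.8% of all probes).

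Among genes named as S6 kinases (Rps6k), 11 probes of 6 names were tested. With miR-26a 1 of them rose (Rps6ka4, 0.51, limma adjusted p = 0.0196), which is 9.09% against 9.64% of all probes. No probe of Rps6kb1 or Rps6kb2 passed against the control with miR-26a (lowest limma adjusted p 0.0956). Against the sponge Rps6ka4 (0.61) and 2 Rps6kb2 probes (0.46 and 0.37) were higher and Rps6ka1 (-0.27) was lower, 36.4% of the 11 probes against 16.8% of all probes. Ribosomal proteins with other names (Rpsa, Fau and others, 8 probes) and the names marked as pseudogenes (6 probes) had medians of 0.0166 and -0.0298 with miR-26a, and none passed in any comparison. Whether any list differed from the rest of the array was not tested.

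**Figure D5:**
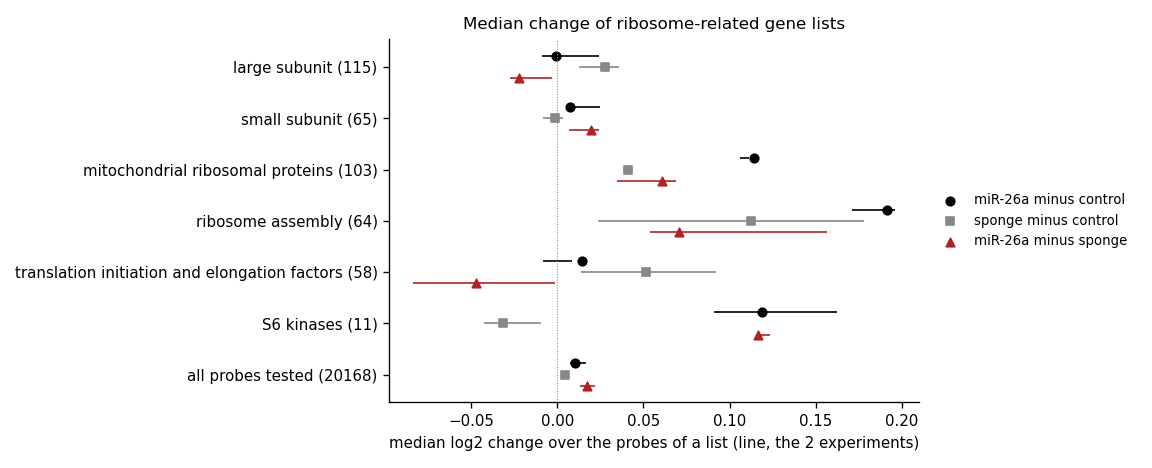
Median log2 change over the tested probes of each list (number of probes in brackets) in the 3 comparisons, with a line spanning the medians of the 2 experiments. With miR-26a the ribosome assembly list stood highest (0.191) and the mitochondrial ribosomal proteins next to the S6 kinases (0.114 and 0.119). The points of both cytosolic subunits lay within 0.03 of 0 in every comparison. The line of the large subunit with the sponge reached 0.0357 (experiment 1).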

How the data were processed

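For every array the authors deposited its scanner output, with spot intensity as a background-subtracted processed signal (Agilent Feature Extraction, 10.7.3.1 per the file headers and 10.7.1.1 in the submitters' processing notes), and a table of quantile-normalized intensity values. Per the methods, the authors quantile-normalized, log2-transformed and normalized to the control of each experiment. Here control spots and outlier-flagged spots were left out, processed signals were quantile-normalized and put on the log2 scale, and the spots of each probe were averaged. limma 3.58.1 (R 4.3.3) was fitted to the 6 arrays together, with experiment as a blocking term, and p-values were corrected over 20168 tested probes by the Benjamini-Hochberg method. Groups and replicate numbers came from the sample labels. The pairing rests on the methods, and same-numbered arrays deviated together (correlations of 0.379, 0.588 and 0.454 over all tested probes). The control arrays may belong to an earlier series. Replicates were separate clones, and 2 arrays a group limit the precision. The member rule, the gene lists and the alternatives were chosen with earlier results of these data known. Member probes were named when they passed, when among the 4 largest rises or falls of a comparison, or when on a short list of paralogs, stalk proteins and well known members, and a few probes that the rule covers are not reported here. Simulated data with known changes were used to test the model. Tables and plots used Python 3.11.15, numpy 2.4.6, pandas 2.3.3 and matplotlib 3.10.9. Protein sequences were not used here. No per-sample column stayed unassigned.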

Additional observations from a re-analysis of the deposited data

How the results depend on the processing

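The results rest on 2 arrays a group, and the called Rpl3l probe was dim. The count of ribosomal protein probes called for miR-26a against the control was 1. The count was 0 without the replicate block, with no filter on dim probes, with the methods' t-test and when only core proteins were members, which leaves out Rpl3l. It was 1 under every other setting run, including each of the 6 fits that left out an array. For the sponge against the control it was 0 under every setting run. For miR-26a against the sponge the count was 2. It was 0 without the replicate block, with no filter and with the methods' t-test, 1 with core proteins only, with the probes of a gene averaged and with only the 2 groups compared, and 4 with normexp background correction, where both Rpl34 probes passed as well. Leaving out 1 array gave 0 (sponge replicate 1) to 1. Without sponge replicate 2 the probe called was of Rpl6. Scaled to the 75th percentile, 2 probes were called, of Rpl3l and Rpl22. Over all probes the replicate block moved the calls from 311 to 1944 for miR-26a against the control and from 997 to 3381 against the sponge. The cause of these differences was not tested.

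For miR-26a against the control the large subunit median (-0.00087) was 0.0210 when scaled to the 75th percentile, 0.00180 with normexp, 0.00113 with the authors' processed values, 0.000807 with the probes of a gene averaged and -0.0159 to 0.0210 when 1 array was left out, and the large minus small difference (-0.0085) was -0.0192 to 0.00683. The large subunit median for miR-26a against the sponge was 0.00703 when scaled to the 75th percentile, and leaving out 1 array gave 0.00608 to 0.0407 for the sponge against the control and -0.0312 to -0.000404 for miR-26a against the sponge. For the small subunit, scaling to the 75th percentile gave 0.0281 (miR-26a against control), -0.0205 (sponge against control) and 0.0444 (miR-26a against sponge), and normexp gave 0.0181 and 0.00141 for the last 2. The large minus small difference for the sponge against the control was 0.0394 when scaled, 0.00117 with normexp, 0.0130 with the probes of a gene averaged and 0.0129 to 0.0362 when 1 array was left out. For miR-26a against the sponge it was -0.0167 with normexp and -0.0448 to -0.0252 when 1 array was left out. Single probes changed direction with their genes averaged for Rps3 (0.0121, miR-26a against control) and Rpl6 (-0.0902, sponge against control). The Rpl6 probe A_55_P2042426 gave -1.22 to 0.0872 (sponge against control) and -0.0937 to 1.21 (miR-26a against sponge) when 1 array was left out. The count of ribosome assembly probes called for miR-26a against the control was 7, and it was 13 with normexp, 3 with only the 2 groups compared, 0 with no filter, no replicate block or the methods' t-test, and 0 to 4 when 1 array was left out. Against the sponge it was also 7, and it was 4 when scaled to the 75th percentile, 2 with only the 2 groups compared, 1 without the replicate block, 0 with no filter or the methods' t-test, and 0 to 4 when 1 array was left out.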
